A study of Mus musculus with 20 samples.

Results

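Chronic intermittent hypoxia (CIH) alone was compared with sham in the hearts of C57BL/6J mice, 4 hearts against 5, by sequencing of small RNA. Of the 1545 entries in the table of miRNA levels, the comparison covers the 360 with at least 5 RPM in at least 4 of the 20 libraries of the series. RPM stands for reads of an entry per 1000000 reads summed over all entries of its library. The 360 entries held 99.98% to 99.99% of the summed reads of each heart. The labels name the groups by letters only, so that "CIH" is taken to mean the hypoxia exposure that the series title implies by its mention of breathing disorders in sleep. The duration and oxygen level of the exposure, the age and sex of the mice, and the operation that the word sham stands for are not given in the sources used here. Neither group carried an infarct by its label, and 11 further libraries, from infarcted hearts with or without CIH, were used here only for the filter, for 1 alternative fit and for a few levels given beside the results. The labels number the hearts of a group without saying more of their origin, so p-values measure the spread between these samples.

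MicroRNAs (miRNAs) are short RNAs cut from hairpin precursors, which guide the Argonaute protein to messenger RNAs and lower their translation and stability. Pairing rests mostly on the seed, the bases near the 5′ end, so that miRNAs with 1 seed share many targets. In rodents, cycles of low and normal oxygen are used to model the breathing pauses of sleep apnoea. In other settings, lack of oxygen induces miR-210, muscle miRNAs such as miR-1 and miR-208 mark cardiomyocytes, and miR-21, miR-199, miR-214 and miR-29 are known for their links to fibroblasts and extracellular matrix.

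The mature sequences of the miRNAs on which the account turns follow, 5′ to 3′, with the seed (bases 2 to 8) in capitals, from RefSeq on GRCm38.p6. RefSeq mature sequences were matched for 306 of the 360 miRNAs. Members of the miR-15/16 family share 1 seed, and are shown together because their sum did not overlap between the groups on the RPM scale. The 3 strands of miR-29 with 1 seed are shown because the groups of miR-29b-3p did not overlap on that scale either.
miR-16-5p: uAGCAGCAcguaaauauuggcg
miR-195a-5p: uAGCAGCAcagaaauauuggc
miR-15a-5p: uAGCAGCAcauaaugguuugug
miR-15b-5p: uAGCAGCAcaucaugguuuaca
miR-322-5p: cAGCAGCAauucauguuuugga
miR-497a-5p: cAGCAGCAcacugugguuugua
miR-29a-3p: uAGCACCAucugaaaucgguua
miR-29b-3p: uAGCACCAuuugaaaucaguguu
miR-29c-3p: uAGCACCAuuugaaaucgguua
Some of the miRNAs shown next had groups that did not overlap on the RPM scale, and miR-363-3p and miR-208b-3p passed the test in some fits. The others are the hypoxia and fibroblast miRNAs that the comparison would be asked about first.
miR-21a-5p: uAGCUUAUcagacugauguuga
miR-23a-3p: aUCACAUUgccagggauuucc
miR-652-3p: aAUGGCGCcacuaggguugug
miR-363-3p: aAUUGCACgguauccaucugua
miR-208b-3p: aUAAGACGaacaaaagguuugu
miR-214-3p: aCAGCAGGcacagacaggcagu
miR-210-3p: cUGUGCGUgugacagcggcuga

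In the annotation of that build, miR-21a-5p lies at chr11:86584120-86584141 on the minus strand, within an exon of the protein-coding gene Vmp1 on the same strand. miR-208b-3p (chr14:54975710-54975731, minus strand) sits in an intron of Myh7, the gene of the slow beta myosin heavy chain. miR-652-3p (chrX:142739060-142739080, plus strand) sits in an intron of Tmem164. miR-16-5p comes from 2 hairpins, in introns of Dleu2 (chr14:61631936-61631957, minus strand) and Smc4 (chr3:69009918-69009939, plus strand), beside miR-15a-5p and miR-15b-5p respectively. miR-29b-3p also comes from 2 places, chr1:195037091-195037113 on the plus strand and chr6:31063025-31063047 on the minus strand. miR-214-3p (chr1:162223438-162223459, plus strand) lies in an exon of Dnm3os, a transcript antisense to Dnm3. miR-363-3p (chrX:52741697-52741718, minus strand), miR-23a-3p (chr8:84208563-84208583, plus strand) and miR-210-3p (chr7:141221407-141221428, minus strand) have no annotated host gene.

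The depth of the libraries overlapped between the groups. The recovered reads were 5700599 to 10953302 per sham heart and 7155924 to 11985699 per CIH heart, so 1 read was worth 0.0834 to 0.175 RPM. Where no read was counted, up to 3 could have been missed by counting error alone, which is 0.250 to 0.526 RPM by library; no molecular identifiers were recorded, so this covers counting error only. The striated muscle miRNA miR-1a-3p had between 189056 and 314224 RPM in every heart, while the liver miRNA miR-122-5p lay between 0.387 and 7.01 RPM. The 10 most abundant entries took 87.7% to 92.6% of the reads: after miR-1a-3p and its repeat entry miR-1b-5p came miR-143-3p of smooth muscle, miR-378a-3p, miR-148a-3p, miR-21a-5p, miR-26a-5p, miR-22-3p, and miR-30a-5p with miR-30d-5p. 12 of the 360 entries repeated the values of another entry to within 5% in every library. The recovered reads and the RPM scale are sums over all entries, so they count the reads of such repeats again. The largest repeat, miR-1b-5p, adds about as much as miR-1a-3p, from 189056 RPM in sham 1 to 314224 RPM in CIH 3.

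Before any difference, 1 heart of each group stood apart. Sham 1 lay over 2-fold away from the median of the other sham hearts for 88 of 360 miRNAs (24.4%), 77 of them above it. CIH 3 did so against the other CIH hearts for 87 (24.2%), 61 of them below. The remaining 7 hearts did so for 5 to 32 miRNAs (1.39% to 8.89%). Sham 1 was the highest of the 9 hearts for 147 miRNAs, and CIH 3 was the lowest for 121. Across the 360 miRNAs, Pearson's r on log2(RPM + 1) with any of the other hearts ran from 0.933 to 0.971 for sham 1, from 0.933 to 0.976 for CIH 3, and from 0.976 to 0.994 among the other 7 hearts. Results are given with and without these 2 hearts.

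**Figure D1:**
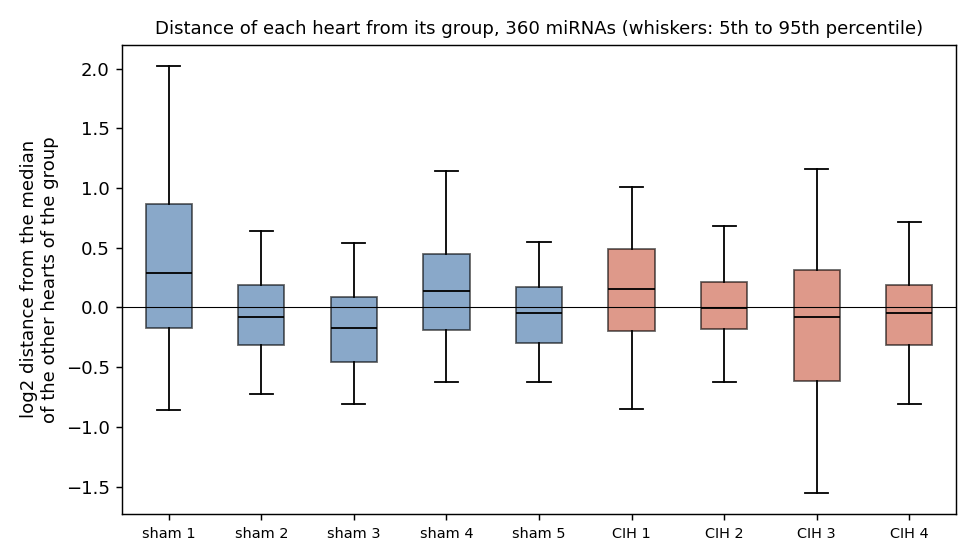
The vertical axis is the log2 distance of each heart from the median of the other hearts of its group, for 360 miRNAs; boxes span the quartiles with the median as a line, and whiskers run from the 5th to the 95th percentile. The boxes of sham 1 (-0.17 to 0.87) and CIH 3 (-0.61 to 0.32) are the widest, the former lying mostly above 0.

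No miRNA passed the test in CIH against sham, and most of the small differences were downward on the RPM scale. limma on the 9 hearts called 0 of 360 miRNAs (0%) at an adjusted p under 0.05, and the smallest adjusted p was 0.505. An unadjusted p under 0.05 was reached by 34 miRNAs with lower levels in CIH (9.44% of those tested) and by 1 with a higher level (0.278%). That split depended on the scaling: it was 15 lower and 12 higher with median-of-ratios and 17 lower and 8 higher with TMM scaling. On the recovered reads edgeR called 0 miRNAs and had 28 below 0.05 before adjustment, 16 lower and 12 higher. DESeq2 called miR-363-3p alone and had 40 before adjustment, 21 lower and 19 higher. In all, 260 of the 360 had a lower and 100 a higher mean log2 level in CIH. This lean depended on how libraries were scaled: the median log2 difference of the 360 was -0.21 on RPM and -0.04 with median-of-ratios scaling, under which 194 were lower and 166 higher. For some miRNAs the difference is also stated against the median of the 360.

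The 9 hearts set wide limits on what could be seen. The 95% interval of a log2 difference had a half-width of 0.65 for the median miRNA, 0.36 for the narrowest and 1.58 for the widest. For 161 of the 360 miRNAs the interval held a 2-fold difference in 1 direction or the other. Smaller differences than these half-widths were not detectable with this number of hearts. The intervals are not adjusted for the 360 tests, so a call needed more than that. The 35 miRNAs with an unadjusted limma p under 0.05 differed by more than their half-width, and 0 were called.

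**Figure D2:**
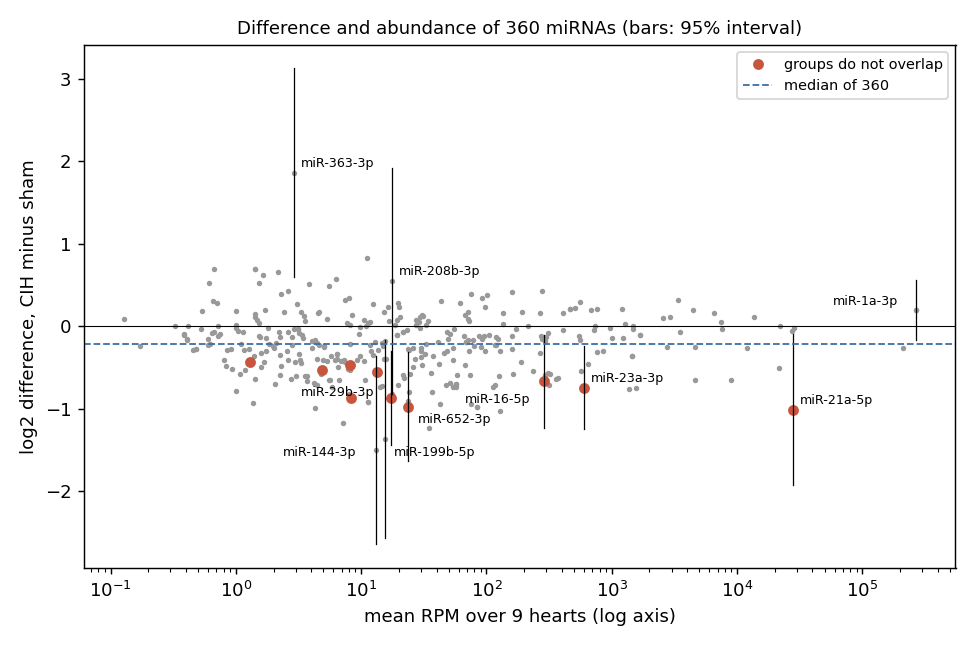
The horizontal axis is the mean RPM of the 9 hearts on a log scale and the vertical axis the log2 difference, CIH minus sham, of each of 360 miRNAs; red points are the 10 whose groups do not overlap, bars are 95% intervals of 10 labelled miRNAs, and the dashed line is the median of -0.21. All 10 red points lie below 0, and miR-363-3p (1.86) is the highest point.

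In single hearts, 10 of the 360 miRNAs (2.78%) had all 4 CIH values below all 5 sham values, and 0 (0%) had all CIH values above. The 10 were miR-21a-5p, miR-23a-3p and miR-16-5p, the only ones with a mean of at least 50 RPM, and miR-652-3p, miR-29b-3p, miR-15a-5p, miR-361-5p, miR-148b-5p, miR-132-3p and miR-669c-5p. Sham 1 was the highest heart for 5 of them and CIH 3 the lowest for 5. Leaving out hearts cannot make such groups overlap, so that is no check of these 10. With 4 sham and 3 CIH hearts remaining, 16 miRNAs (4.44%) had all CIH values below and 5 (1.39%) all above; fewer hearts make such a separation easier to reach. Under median-of-ratios scaling 9 miRNAs did not overlap, and 7 under TMM scaling, but these were not all among the 10. Under both scalings the groups of miR-21a-5p, miR-16-5p and miR-15a-5p overlapped.

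miR-21a-5p, a miRNA raised in many injured and fibrotic tissues, was the most abundant of those 10. It had 100570, 17878, 23457, 28616 and 21109 RPM in sham 1 to 5, and 13116, 14897, 16956 and 15319 RPM in CIH 1 to 4. Sham 1 was by far the highest, but on the RPM scale the other 4 sham hearts also lay above every CIH heart. Under median-of-ratios and TMM scaling sham 2 lay below CIH 3. The mean was 38326 ± 35015 RPM (SD, n = 5) in sham and 15072 ± 1577 RPM (n = 4) in CIH, a log2 difference of -1.01 (SE 0.42, limma adjusted p 0.505), or -0.80 relative to the median of all miRNAs. Without sham 1 the sham mean was 22765 ± 4521 RPM (n = 4) and the difference -0.58 (adjusted p 0.493), and without both hearts it was -0.64 (adjusted p 0.575). Outside the comparison, the 4 infarcted hearts without CIH held 7732 to 20197 RPM, a range that covers all CIH hearts and 1 sham heart.

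miR-23a-3p, of a cluster with miR-27a and miR-24-2 that is known from muscle atrophy and hypertrophy, had the smallest unadjusted p among miRNAs with a mean of at least 50 RPM. Its level was 967, 669, 516, 831 and 683 RPM in sham 1 to 5, and 431, 460, 350 and 478 RPM in CIH 1 to 4. The lowest sham heart lay just above the highest CIH heart. The log2 difference was -0.75 (95% interval -1.25 to -0.25, unadjusted p 0.00702, limma adjusted p 0.505), -0.54 relative to the median, and -0.54 without sham 1 and CIH 3. Its close relative miR-23b-3p, from another cluster, had 227 to 598 RPM in sham and 203 to 244 RPM in CIH (-0.71, unadjusted p 0.0218, adjusted p 0.505), with sham 3 inside the CIH range. Over the 9 tested miR-23/27/24 members 7 were lower and 2 higher, beside 260 lower of all 360. Their median was -0.17 against -0.21 for all 360, or 0.01 under median-of-ratios scaling. That median became 0.08 without both hearts, where 3 of the 9 were lower, the pair of miR-23 strands among them. miR-27a-3p ran from 1283 RPM in CIH 3 to 7208 RPM in CIH 1, the lowest and the highest of the 9 hearts, both in the same group.

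miR-652-3p, which has been studied in heart remodelling, had 47.4, 24.97, 18.6, 41.8 and 23.7 RPM in sham 1 to 5 and 13.8, 16.8, 11.9 and 15.9 RPM in CIH 1 to 4. Its mean in CIH, 14.6 ± 2.18 RPM, was under that of sham, 31.3 ± 12.5 RPM, and the CIH hearts lay close together. The log2 difference was -0.97 (SE 0.30, unadjusted p 0.0077, limma adjusted p 0.505), and -0.72 without both hearts.

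The remaining members of the 10 were rarer and came from unrelated hairpins. miR-361-5p had 12.1 to 19.5 RPM (median 15.7) in sham and 9.85 to 11.6 RPM in CIH, a log2 difference of -0.56 (adjusted p 0.505). miR-148b-5p had 4.98 to 7.72 RPM against 3.38 to 3.91 RPM (-0.53). miR-132-3p, which is co-transcribed with miR-212 and linked to cardiac hypertrophy, had 7.23 to 13.3 RPM against 5.26 to 6.96 RPM (-0.47, adjusted p 0.551). For miR-669c-5p, of a large repeat cluster with near-identical copies, the separation rested on few reads, 11 to 15 per sham heart and 6 to 12 per CIH heart.

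**Figure D3:**
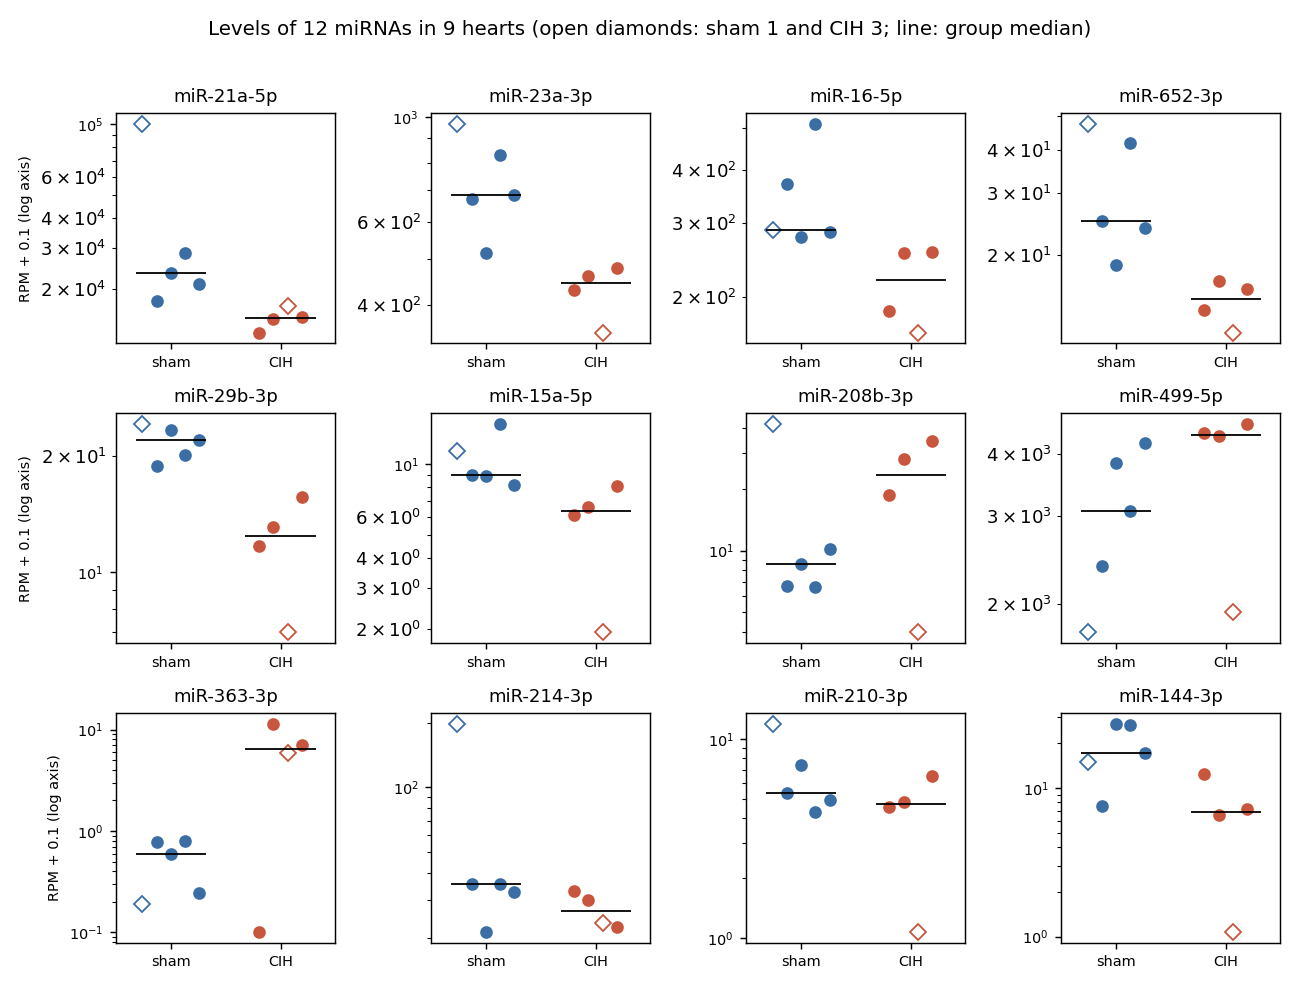
Each panel shows the level of 1 miRNA in the 5 sham and 4 CIH hearts as RPM + 0.1 on a log axis, with a line at the group median and open diamonds for sham 1 and CIH 3. In the panels of miR-21a-5p, miR-23a-3p, miR-16-5p, miR-652-3p, miR-29b-3p and miR-15a-5p all CIH points lie below all sham points, while in that of miR-208b-3p the open diamonds are the highest sham and the lowest CIH heart.

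The miR-15/16 family, which restrains cell-cycle genes and is known to limit cardiomyocyte division after birth, was lower in CIH in all 6 tested members, with a median of -0.59 against -0.21 for the 360. 0 of the 6 passed the test and 3 reached an unadjusted limma p under 0.05, beside 0 and 35 of all 360. miR-16-5p, the most abundant member, had 288, 370, 277, 513 and 285 RPM in sham 1 to 5 and 185, 254, 165 and 256 RPM in CIH 1 to 4. Here sham 1 lay among the other sham hearts and sham 4 was the highest, and the groups did not overlap on the RPM scale. Under median-of-ratios and TMM scaling sham 1 lay below CIH 4. The log2 difference of miR-16-5p was -0.67 (SE 0.26, limma adjusted p 0.505), and -0.61 without sham 1 and CIH 3. miR-15a-5p, from the same primary transcript, had 11.2, 8.91, 8.80, 14.7 and 8.06 RPM against 6.01, 6.51, 1.84 and 8.02 RPM; its difference of -0.87 shrank to -0.48 without both hearts, since CIH 3 was far below the others. miR-195a-5p lay at -0.59, miR-15b-5p at -0.58, miR-322-5p at -0.56 and miR-497a-5p at -0.41. The difference of miR-322-5p depended on CIH 3, which had 9.57 RPM where the other CIH hearts had 29.1 to 47.3 RPM, and it was 0.08 without both hearts. Without both hearts 5 of the 6 members were still lower, with a median of -0.41 against -0.09 for all 360. Under median-of-ratios scaling all 6 were lower, with a median of -0.38 against -0.04.

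Summed over the shared seed AGCAGCA, the family had 529, 528, 419, 716 and 428 RPM in sham 1 to 5 and 302, 383, 243 and 389 RPM in CIH 1 to 4. On the RPM scale the sums did not overlap. Under median-of-ratios and TMM scaling the sum of CIH 4 lay above those of sham 1 and sham 5. The log2 difference of the RPM sums was -0.67 (SE 0.22, unadjusted p 0.0117, limma adjusted p 0.330 over the families), and -0.52 without both hearts (adjusted p 0.465). In all, 29 families of miRNAs with 1 seed, holding 82 miRNAs, were summed, and 21 of the 29 were lower in CIH. An unadjusted limma p under 0.05 was reached by 3 families, and 0 (0%) passed. These shares were near those of all 360 miRNAs, of which 260 were lower and 35 reached an unadjusted p under 0.05. The next smallest p belonged to the seed AAAGUGC of miR-17-5p, miR-20a-5p, miR-93-5p and miR-106b-5p (-0.72, unadjusted p 0.0325, adjusted p 0.330) and the seed GCAGCAU of miR-103-3p and miR-107-3p (-0.57, unadjusted p 0.0342, adjusted p 0.330). In the first of these families the CIH sums, 119, 151, 82.3 and 181 RPM, overlapped with the sham sums of 155 to 354 RPM. Among its members, miR-93-5p differed by -0.71 and miR-17-5p by -0.72; of the pair, miR-103-3p differed by -0.59. None passed the test. Apart from AGCAGCA, only the seed AAGUUCU of miR-148a-5p and miR-148b-5p had sums that did not overlap. They were 17.99 to 40.35 RPM in sham and 7.058 to 16.71 RPM in CIH, and the sums of all other families overlapped. The AAGUUCU sums, too, overlapped under median-of-ratios and TMM scaling.

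The miR-29 family represses collagen and other matrix genes. All 5 tested members were lower in CIH, beside 260 of all 360, with a median of -0.58 against -0.21. The miR-29 median was -0.69 without sham 1, -0.38 without CIH 3, -0.58 without both hearts and -0.37 under median-of-ratios scaling. 0 of 5 passed, and 1 reached an unadjusted limma p under 0.05, beside 35 of all 360. miR-29b-3p, the rarest of the mature strands with the AGCACCA seed, had 24.2, 18.8, 23.3, 20 and 22.0 RPM in sham 1 to 5 and 11.6, 13.0, 6.87 and 15.6 RPM in CIH 1 to 4. On the RPM scale the sham hearts lay within a narrow range and none overlapped with CIH, while under TMM scaling sham 1 lay below CIH 4. The log2 difference of miR-29b-3p was -0.87 (95% interval -1.44 to -0.30), with the smallest unadjusted p of the 360, 0.00621 (limma adjusted p 0.505), and -0.62 without both hearts. miR-29a-3p, the most abundant, had 309 to 469 RPM in sham and 296, 310, 115 and 342 RPM in CIH. Its difference of -0.58 owed much to CIH 3 and was -0.22 without that heart. miR-29c-3p likewise had 5.22 RPM in CIH 3 and 16.2 to 21.1 RPM in the other CIH hearts, at a difference of -0.71 that became -0.28 without both hearts. The sum of these 3 strands, which share a seed, differed by -0.61 with all hearts (limma adjusted p 0.354) and by -0.28 without both.

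In the fibroblast cluster of miR-199 and miR-214, sham 1 was far above all other hearts. Summed over the 5 tested members, sham 1 held 1932 RPM where the other sham hearts held 404 to 439 RPM and the CIH hearts 191 to 438 RPM. All 5 were lower in CIH, beside 260 of all 360, with a median of -1.03 against -0.21. An unadjusted limma p under 0.05 was reached by 2 of them, miR-199b-5p and miR-214-5p, beside 35 of all 360, and 0 passed. Sham 1 was the highest of the 9 hearts for all 5. Without sham 1 the median was -0.44, and without both hearts -0.14, against -0.09 for all 360. miR-214-3p had 198, 35.5, 21.0, 35.3 and 32.4 RPM in sham 1 to 5 and 33.0, 29.9, 23.2 and 22.4 RPM in CIH 1 to 4, which is a log2 difference of -0.71 with and -0.11 without both hearts. miR-199a-5p had 590 RPM in sham 1, 53.3 to 126 RPM in the other sham hearts and 29.3 to 86.7 RPM in CIH, a difference of -1.03 that became -0.14. miR-199a-3p, at 1055 RPM in sham 1 and 265 to 323 RPM in the other sham hearts, went from -0.64 to 0.01, so its sign turned. The 2 with the smallest p kept more of their difference: miR-214-5p went from -1.17 to -0.77 without sham 1 and -0.65 without both hearts, and miR-199b-5p from -1.37 to -0.92 and -0.52. In whole hearts, fewer cells of a type and less RNA per cell cannot be told apart.

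The imprinted Dlk1-Dio3 locus, a large cluster of miRNAs that is most active before birth, followed the same heart. Of its 43 tested members 40 were lower in CIH, at a median of -0.43, beside 260 of all 360 at -0.21. Sham 1 was the highest of the 9 hearts for 42 of the 43. Their sum was 3536 RPM in sham 1, 676 to 991 RPM in the other sham hearts and 579 to 1061 RPM in CIH. Without sham 1 the median was -0.10 with 30 lower, beside -0.11 with 241 lower for all 360. Without both hearts it was -0.05 with 26 lower, beside -0.09 with 224 lower for all 360. miR-136-3p, 1 of its abundant members, had 334 RPM in sham 1 and 39.1 to 81.5 RPM in the other sham hearts, against 21.4 to 53.9 RPM in CIH; its difference of -0.98 became -0.17 without both hearts. miR-381-3p differed by -1.24 (unadjusted p 0.0189, limma adjusted p 0.505) and by -0.62 without both. 0 of the 43 passed.

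**Figure D4:**
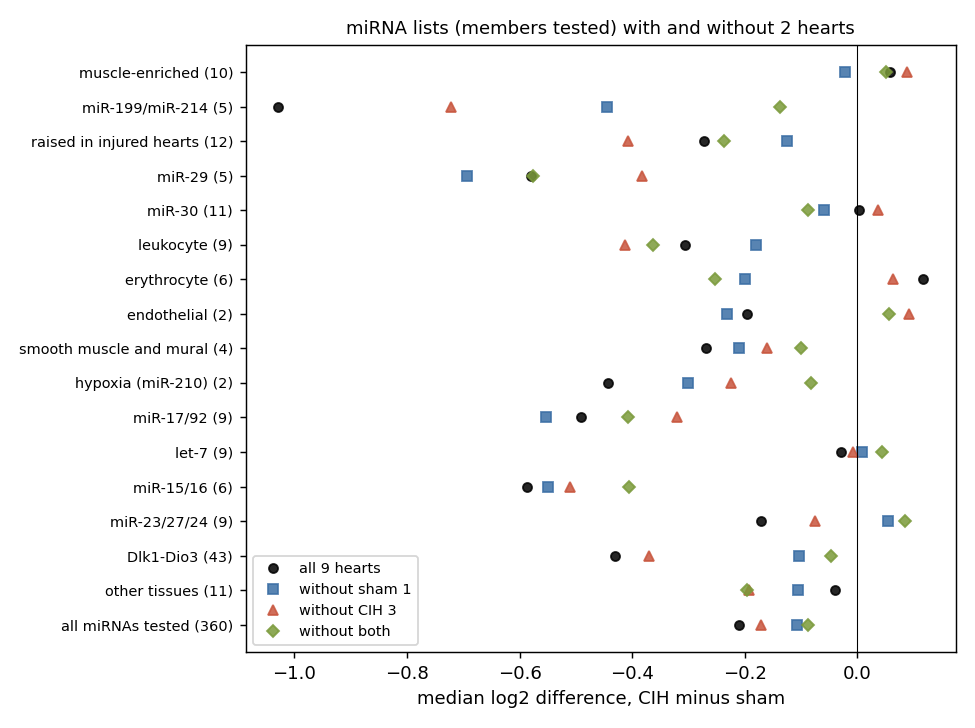
Each row is a list of miRNAs with the number of members tested, and the horizontal axis is the median log2 difference, CIH minus sham; circles are all 9 hearts, squares without sham 1, triangles without CIH 3 and diamonds without both. The miR-199/miR-214 list goes from -1.03 with all hearts to -0.14 without both and Dlk1-Dio3 from -0.43 to -0.05; miR-29 lies between -0.69 without sham 1 and -0.38 without CIH 3.

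The hypoxia-induced miR-210 was not higher in CIH. miR-210-3p had 11.9, 5.26, 7.33, 4.21 and 4.83 RPM in sham 1 to 5 and 4.47, 4.76, 0.967 and 6.41 RPM in CIH 1 to 4. Apart from sham 1 above and CIH 3 below, the hearts of both groups lay between 4.21 and 7.33 RPM. The log2 difference was -0.65 (95% interval -1.53 to 0.22, limma adjusted p 0.608), -0.45 without sham 1, -0.24 without CIH 3 and -0.04 without both. The other strand, miR-210-5p, had 0 to 6 reads per heart, at or near the counting limit.

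The muscle-enriched list had 10 members tested, of which 5 were higher and 5 lower in CIH, with a median of 0.06 and 0 past the test. The sign of that median was not stable: it was -0.02 without sham 1, -0.08 without repeated entries such as miR-1b-5p, and 0.27 under median-of-ratios scaling. miR-208b-3p had 41.7, 6.61, 8.504, 6.49 and 10.1 RPM in sham 1 to 5 and 18.6, 28.1, 3.87 and 34.3 RPM in CIH 1 to 4. The highest sham heart was sham 1 and the lowest CIH heart was CIH 3, each at odds with the rest of its group. With all 9 hearts the log2 difference was 0.55 (SE 0.63, limma adjusted p 0.750), without sham 1 it was 1.01 and without CIH 3 1.17. With both left out it was 1.63, with an adjusted p of 0.0254, and miR-208b-3p was then the only miRNA of 360 called (0.278%). The mean was 7.93 ± 1.72 RPM (n = 4) in sham without sham 1 and 27.02 ± 7.94 RPM (n = 3) in CIH without CIH 3. The choice of these 2 hearts was made with their values known, those of miR-208b-3p included, so this call is not independent of it. The infarcted hearts held 4.91 to 22.1 RPM, and those with infarct and CIH 3.52 to 99.3 RPM, so a wide range was seen elsewhere in the series too.

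miR-499-5p, which lies in an intron of the myosin heavy chain gene Myh7b, had 1751, 2376, 3839, 3069 and 4208 RPM in sham 1 to 5 and 4396, 4348, 1923 and 4598 RPM in CIH 1 to 4. CIH 1, 2 and 4 lay above every sham heart and CIH 3 below 4 of the 5. The log2 difference was 0.31 (limma adjusted p 0.742) and 0.43 without both hearts (adjusted p 0.695). Together with miR-208b-3p, miR-450a-5p, miR-122-5p and the repeat of the latter it made up the 5 whose CIH values all lay above sham without both hearts. miR-1a-3p, the most abundant, had 189056, 268876, 267785, 272753 and 261221 RPM in sham 1 to 5 and 245804, 281399, 314224 and 308132 RPM in CIH 1 to 4. Sham 1 was the lowest heart and the log2 difference of 0.20 was 0.05 without both. The alpha myosin intron miRNA miR-208a-3p had 54.2 to 99.9 RPM in sham and 30.9 to 100.2 RPM in CIH, so the groups overlapped throughout. The skeletal muscle miRNA miR-206-3p, which passed the filter through the infarcted hearts, had 0 to 2 reads in 8 of the hearts and 49 reads (4.74 RPM) in CIH 3.

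miR-363-3p, of the X-linked cluster related to miR-17/92 and sharing its seed with the miR-92 group, had the largest difference upward. It had 0.0913, 0.675, 0.489, 0.702 and 0.147 RPM in sham 1 to 5 and 0, 11.4, 5.801 and 6.92 RPM in CIH 1 to 4. It was under 1 RPM in every sham heart and passed the filter only through some CIH and infarcted hearts, where it is high, so it had to be high somewhere. These levels are 1, 5, 5, 4 and 1 reads in sham and 0, 136, 60 and 82 reads in CIH. Thus 3 CIH hearts lay far above all sham hearts, and CIH 1 had no read at all. The log2 difference was 1.86 (SE 0.58, unadjusted p 0.00757, limma adjusted p 0.505). Leaving out CIH 1 raised it to 2.64 with an adjusted p of 0.000568, sample quality weights gave 2.53 (adjusted p 0.0226), DESeq2 an adjusted p of 0.00605 and edgeR 0.306. Unlike miR-208b-3p it did not turn on sham 1 or CIH 3: without both the difference was 1.63, though not called (adjusted p 0.575). In the infarcted hearts miR-363-3p ran from 0.295 to 11.7 RPM, and from 1.48 to 47.3 RPM in those with infarct and CIH. In the miR-17/92 list 7 of the 9 tested members were lower, beside 260 of all 360. The median of the list was -0.49 against -0.21 for all 360. An unadjusted limma p under 0.05 was reached by 4 members, miR-363-3p among them, beside 35 of all 360. Under median-of-ratios scaling 6 of the 9 were lower, with a median of -0.29 against -0.04. On the RPM scale miR-92a-3p was the other higher member, at 54.4 to 149 RPM in sham and 82.7 to 114 RPM in CIH.

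miRNAs of blood and immune cells overlapped between the groups for the most part. The erythroid miR-144-3p had 14.8, 7.42, 26.9, 26.3 and 17.0 RPM in sham 1 to 5 and 12.3, 6.42, 0.967 and 7.09 RPM in CIH 1 to 4. It had the most negative log2 difference of all 360, -1.51 (SE 0.52, unadjusted p 0.0142, limma adjusted p 0.505), which was -0.99 without both hearts. Its neighbour miR-451a, the major miRNA of red cells, had 307 to 3078 RPM in sham and 559 to 1950 RPM in CIH with no separation. Over the 6 erythrocyte miRNAs 4 were higher and 2 lower (median 0.12), beside 260 lower of all 360. Without both hearts all 6 were lower (median -0.25), beside 224 of all 360. The sum of the 6 ran from 1105 to 5421 RPM in sham and from 2207 to 3497 RPM in CIH, and none of them was at 0 in any heart. The list holds miR-486b-3p, which repeats miR-486a-5p to within 4.26%. The log2 ratio of miR-486a-5p to miR-486a-3p stayed between -0.18 and -0.07 in every heart. The counts, medians and sum of this list thus take in much the same miR-486 values repeatedly. Whether blood left in the tissue had a part in the difference of miR-144-3p was not tested.

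Among leukocyte miRNAs 7 of 9 were lower, beside 260 of all 360, with a median of -0.31 against -0.21. Under median-of-ratios scaling 5 were lower, beside 194 of all 360, with a median of -0.10 against -0.04. All 9 were lower without both hearts, beside 224 of all 360 (median -0.36 against -0.09). miR-142a-3p had 16.9, 10.7, 19.1, 18.1 and 8.79 RPM in sham 1 to 5 and 5.17, 9.26, 6.29 and 7.76 RPM in CIH 1 to 4; only sham 5 and CIH 2 overlapped. Its log2 difference was -0.92 (SE 0.29, unadjusted p 0.00866, limma adjusted p 0.505), and the entry miR-142b repeats the same values. The other strand of this hairpin, miR-142a-5p, ran from 122 to 475 RPM in sham and from 107 to 363 RPM in CIH. The myeloid miR-223-3p had 6.48 to 12.9 RPM in sham and 5.31 to 6.75 RPM in CIH (-0.43, adjusted p 0.608). miR-150-5p of lymphocytes was among the higher members, with 42.2 to 121 RPM in sham and 81.0 to 173 RPM in CIH. Summed leukocyte levels were 447 to 808 RPM in sham and 380 to 740 RPM in CIH.

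The remaining lists had medians between -0.27 and 0.00, beside -0.21 for all 360, and 0 members past the test. Of the 12 tested miRNAs listed as raised in injured hearts 10 were lower and 2 higher (median -0.27), beside 260 lower of all 360. Sham 1 was the highest heart for 8 of the 12. Without sham 1 their median was -0.12 with 7 lower, and under median-of-ratios scaling it was -0.07 with 7 lower. The 11 miR-30 miRNAs, abundant in heart muscle, had a median of 0.00 with 7 higher, but without sham 1 8 were lower (median -0.06) and without both hearts 9 were lower (median -0.09). Under median-of-ratios scaling their median was 0.21. The 9 let-7 miRNAs had a median of -0.03, which was 0.18 under median-of-ratios and 0.19 under TMM scaling. The 4 smooth muscle miRNAs had a median of -0.27 with 3 lower, which was -0.10 without both hearts and -0.07 under median-of-ratios scaling. Both strands of the endothelial miR-126a were lower (median -0.20), which turned to 0.06 without both hearts and 0.01 under median-of-ratios scaling. The 11 miRNAs of other tissues, which serve as a check on foreign material, had a median of -0.04, which was -0.20 without both hearts and 0.11 under median-of-ratios scaling. In 1 of them, the endocrine miR-375-3p, 8 hearts had 0 to 7 reads and CIH 3 had 39. The largest differences upward at a mean of 50 RPM or more were those of miR-128-3p (0.43, adjusted p 0.608) and miR-22-5p (0.42, adjusted p 0.617). CIH 1 carried miR-22-5p, with 292 RPM against 140 to 180 RPM in the other CIH hearts and 114 to 166 RPM in sham, and without CIH 1 the difference was 0.18.

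In the abundant miR-101 pair the difference rested mainly on CIH 3. miR-101a-3p had 14451, 7791, 12384, 6954 and 9654 RPM in sham 1 to 5 and 8474, 8902, 2100 and 9642 RPM in CIH 1 to 4. CIH 3 lay far below all other hearts, whose values overlapped. The log2 difference of -0.66 was -0.13 without CIH 3 and 0.00 without both hearts. miR-101b-3p, with 410 RPM in CIH 3 and 1179 to 1333 RPM in the other CIH hearts, differed by -0.76 (unadjusted p 0.0478) and by -0.23 without both. miR-690 went the opposite way, with 27.02, 112, 59.9, 178 and 107 RPM in sham 1 to 5 and 18.9, 27.03, 79.0 and 74.0 RPM in CIH 1 to 4, so that sham 1 was the lowest sham heart and CIH 3 the highest CIH heart. Its difference went from -0.94 to -1.63 (adjusted p 0.496) when both hearts were left out.

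**Figure D5:**
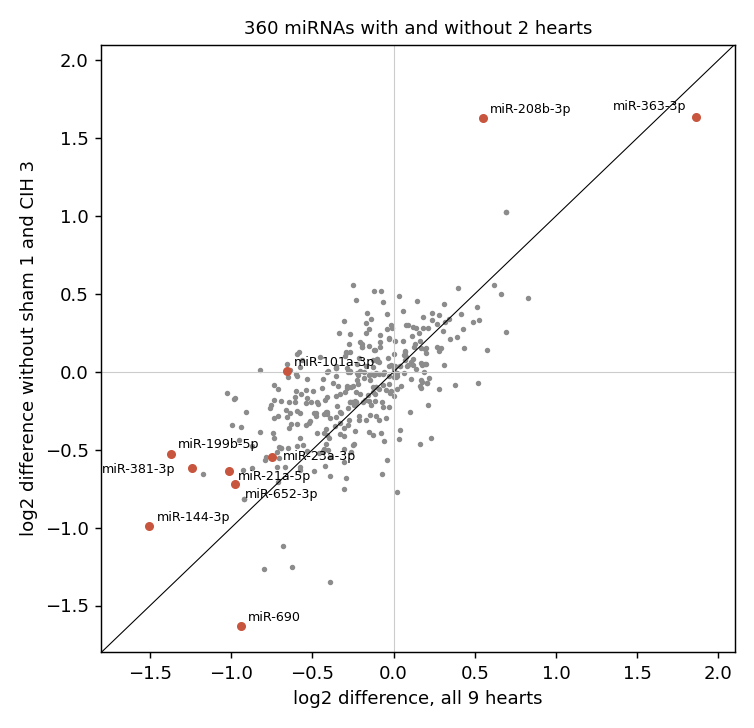
Each point is 1 of 360 miRNAs, with the log2 difference, CIH minus sham, over all 9 hearts on the horizontal axis and without sham 1 and CIH 3 on the vertical axis; the diagonal marks equal values. miR-208b-3p lies far above the diagonal (0.55 and 1.63), miR-101a-3p comes to lie at 0.00, and miR-690 moves further down (-0.94 and -1.63).

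The 2 strands of a hairpin share a library, so the scaling of the library enters their ratio only through the pseudocount, which matters for rare strands. Of 86 hairpins with both strands among the 360, paired by name, 0 (0%) had a ratio of 5p to 3p past the test, with 5 at an unadjusted p under 0.05. Some strands repeat the values of another hairpin, as miR-126b-3p does miR-126a-5p and miR-467a-5p does miR-467b-5p. Ratios such as those of miR-126b and miR-467a may thus not compare strands of a single hairpin. The median absolute log2 difference of the ratio was 0.27, with a median 95% half-width of 0.70, and 1 hairpin was over 1. The smallest p was that of miR-409 (log2 difference -0.79, SE 0.24, unadjusted p 0.00749, limma adjusted p 0.644). Its log2 ratio was -2.41, -2.28, -1.95, -2.10 and -2.49 in sham 1 to 5 and -3.09, -2.80, -3.53 and -2.72 in CIH 1 to 4, with no overlap. The 5p strand behind it was rare, at 0.250 to 3.20 RPM over the 9 hearts, and the difference was -1.09 with a pseudocount of 0.5 RPM and -0.25 with one of 5 RPM. miR-195a (-0.77, adjusted p 0.670) and miR-22 (0.68, adjusted p 0.670) followed.

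Base composition was set beside the differences. Among the 306 miRNAs with a sequence, Spearman's rho between GC content and the log2 difference was 0.16 with all hearts and 0.20 without both, across miRNAs that share the same 9 libraries. The 102 miRNAs with the lowest GC content (at most 43.8%) had a median difference of -0.31 and the 102 with the highest (at least 52.2%) one of -0.17. Single hearts deviated from their group with GC content by a rho of -0.21 to 0.23, with CIH 2 and sham 2 at the ends. The part of this in the differences of single miRNAs was not tested.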

How the data were processed

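Small RNA libraries of 20 mouse hearts were deposited as 1 table; 9 of them (5 sham, 4 CIH) were compared here. The header of the table calls its values TPM, but each column sums to 1000000 without a length term, so they are taken as RPM, the share of a library's miRNA reads scaled to 1000000 by the authors. In each library 100% of the values were whole multiples of 1 read (tolerance 0.05 reads), and reads were recovered from them. Per the labels' protocols, libraries were made from Trizol-extracted total RNA of frozen hearts with a NEBNext kit. Per the submitters' processing notes, the build was mm10 and the tools included Bowtie and DESeq 1.8.3; the counting rules and the miRBase release are not given in the sources used here. 

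Entries were tested where 4 or more of the 20 libraries had 5 RPM or more (360, of which 358 have miRBase names and 2 are predicted) with limma 3.58.1 in R 4.3.3 on log2(RPM + 1), moderated with a trend, two-sided, adjusted by Benjamini-Hochberg over the 360 at a threshold of 0.05. A log2 difference on this scale understates the change of low miRNAs. Only the 9 hearts entered the fit, because the infarcted groups hold libraries with other profiles. Sums over seeds and ratios of hairpin strands were tested likewise. Alternatives were pseudocounts of 0.5 and 5 RPM, other filters, scaling by TMM or by median of ratios, quality weights per library, all 20 libraries in 1 fit, the replicate number as a block, omission of repeated entries, of each heart in turn and of sham 1 and CIH 3 together, and edgeR 4.0.16 and DESeq2 1.42.0 on the recovered reads. The limma steps were tried on simulated counts with the same dispersion for all miRNAs and no outlying heart. That trial checks the code and not its behaviour with hearts such as sham 1 and CIH 3.

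The miRNAs and the 16 lists were chosen with earlier results of these data known, so no list median is independent support. Named are the 5 smallest p in each direction, the largest differences and non-overlapping groups at a mean of at least 50 RPM, the most abundant, those farthest from their group in sham 1 or CIH 3, and the 4 most abundant members of each list. Also included are 7 miRNAs fixed by name, likewise with those earlier results known (miR-144-3p, miR-363-3p, miR-223-3p, miR-210-3p, miR-208b-3p, miR-21a-5p and miR-214-3p). Rarer miRNAs whose groups do not overlap, further members of the seed families and of the lists, and miR-450a-5p, miR-122-5p, miR-206-3p and miR-375-3p were named after their values were seen. Entries that share reads cannot be told apart. Sequences and positions are from RefSeq and GENCODE M21 on GRCm38.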

Additional observations from a re-analysis of the deposited data

Results flagged for a closer look

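Among 98 groups of hearts examined, 12 held a heart whose gap to the nearest other heart exceeded Dixon's limit for its group size on the log2(RPM + 1) scale; chance alone gives about 1 in 20 groups. Sham 1 accounted for 5 of the 12: it was high for miR-21a-5p (100570 RPM), miR-208b-3p (41.7 RPM), miR-214-3p (198 RPM) and miR-199a-3p (1055 RPM), and low for miR-1a-3p (189056 RPM). CIH 3 accounted for another 5, all low: miR-499-5p (1923 RPM), miR-101a-3p (2100 RPM), miR-101b-3p (410 RPM), miR-136-3p (21.4 RPM) and miR-29a-3p (115 RPM). The remaining 2 were high values, of miR-361-5p in CIH 4 (11.6 RPM) and of miR-409-5p in CIH 1 (0.699 RPM). The miRNAs examined are those named in the text, some of them chosen for their distance in these 2 hearts, so the share is not one over all miRNAs.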

How the results depend on the processing

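The count of 0 called miRNAs became 1 with sample quality weights (miR-363-3p), 1 with sham 1 and CIH 3 both left out (miR-208b-3p) and 1 with DESeq2 (miR-363-3p), and ran from 0 to 1 over the hearts left out in turn, with 1 without CIH 1 (miR-363-3p). It was 0 under the pseudocounts, filters, scalings and edgeR, and in the fit of all 20 libraries, where 1 miRNA had an unadjusted p under 0.05. The 10 miRNAs without overlap were 21 with both hearts left out and 13 to 21 with single hearts left out, as fewer hearts have to be apart. Same-numbered hearts did not pair: r of their deviations was 0.32, 0.0112, -0.213 and -0.222. With the replicate block 0 miRNAs were called, 36 had an unadjusted p under 0.05 and the smallest adjusted p was 0.460. Of 43 miRNAs tried under 23 settings, 40 kept their sign in each setting that tested them; with both hearts left out miR-199a-3p turned to 0.0113, miR-101a-3p to 0.0035 and miR-322-5p to 0.0771. Arm ratios and seed families had 0 calls in each of their alternatives. With 4 and 5 hearts, the lower quartile of the 95% half-widths is 0.544, and miRNAs near the counting limit are less precise still.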

Other observations

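Some miRNAs that enter no list were also lower in CIH, as were 260 of all 360 on the RPM scale and 194 under median-of-ratios scaling. Both strands of miR-140, known from cartilage and matrix-forming cells, were among the 10 largest differences downward at a mean of at least 50 RPM. miR-140-5p had 113, 70.2, 53.4, 60.5 and 38.2 RPM in sham 1 to 5 and 38.7, 50.8, 29.8 and 32.7 RPM in CIH 1 to 4, a log2 difference of -0.74 (limma adjusted p 0.505), and sham 5 overlapped with CIH. Sham 1 was its highest heart and CIH 3 its lowest. miR-103-3p, a metabolic miRNA, had 227 to 449 RPM in sham and 178 to 292 RPM in CIH, with an unadjusted p of 0.0401 and an adjusted p of 0.505.

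The liver miRNA miR-122-5p had 3 to 8 reads per sham heart and 7, 84, 4 and 14 reads in CIH 1 to 4, so that its difference of 0.69 rested on CIH 2.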
